A study of Mus musculus with 8 samples.

Results

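Cultured mouse hippocampal neurons treated with siRNA against Rbfox1 and Rbfox3 were compared with neurons given non-targeting siRNA, in gene expression and in the use of cassette exons. This comparison used 4 of the 8 samples of the study, 2 in each of 2 groups. The other 2 groups carried the same knockdown with a cytoplasmic or a nuclear Rbfox1 isoform added back. Control and knockdown neurons had both received an adeno-associated virus of type AAV2/9 that expresses EGFP from the synapsin I promoter, which is active in neurons. The virus was given at 9 days in vitro (DIV), at 1500 genomic copies per cell for 12 hours. Accell siRNA was added at 10 DIV for 4 days, and RNA was taken at 14 DIV. RNA depleted of ribosomal RNA was sequenced as paired reads of 50 nt that do not keep strand, so overlapping genes cannot be told apart. Nothing in the labels ties the 2 samples in each group to different cultures, so what separates them may be technical, and no p-value here speaks for more than these samples.

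The genes described are those with at least 1 FPKM (fragments per kilobase of transcript, scaled to library size) in either group, 12611 of the 15598 listed. At that limit, Steap2 (0.9204 FPKM in control and 1.0005 in knockdown neurons) and Bach2 (1.0006 and 0.9326) were just inside, and Col28a1 (0.9996 and 0.9842) and Nsun3 (0.9996 and 0.8224) just outside. A gene under 1 FPKM in 1 group entered only through the group where it was higher. The exons are the 214 cassette exons in 202 genes that the authors listed for these groups, of 551 different exons listed over the study. Each FPKM is 1 value per group, in which the authors had already combined the libraries, so no spread between samples can be given and depth per sample is unknown. A log2 ratio below is knockdown over control, computed from FPKM. The error after it is the implied error, which is the log2 ratio divided by the authors' test statistic.

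Rbfox1, Rbfox2 and Rbfox3 encode RNA-binding proteins that recognise the short RNA motif GCAUG, most strongly with a U before it. They are known above all as regulators of alternative splicing in neurons: binding in the intron downstream of an exon tends to favour its inclusion, and binding upstream or within it tends to favour skipping. Rbfox1 also has splice isoforms that reside in the cytoplasm, and Rbfox3 is the antigen NeuN, a widely used marker of mature neurons.

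Both targeted genes fell. Rbfox1 (mm9, chr16:5884886-7412573) measured 25.7 FPKM in control and 1.94 FPKM in knockdown neurons, 7.53% of control, a log2 ratio of -3.73 with an implied error of 0.148. Rbfox3 (chr11:118351074-118770886) measured 12.4 and 1.59 FPKM, 12.9% of control, a log2 ratio of -2.96 with an implied error of 0.158. Rbfox2, the family member without an siRNA, measured 35.4 and 42.1 FPKM. Its log2 ratio of 0.25 had an implied error of 0.159, and it was not called. Among the 48 tested splicing regulators outside the family, 0 were called in the authors' deposited table at q below 0.05, and 2 had an unadjusted p below 0.05. Of the 48, 35 lay above 0, with a median log2 ratio of 0.11, against 0.03 over all genes tested.

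In the authors' deposited table, 314 of the 12611 genes passed q below 0.05, or 2.49%. Of them 201 were lower in knockdown neurons (1.59%) and 113 higher (0.896%). At an unadjusted p below 0.05 in the authors' deposited table there were 1390 genes, 11% of those tested. The changes were mostly moderate. The median log2 ratio was -0.74 among the falls and 0.65 among the rises, and 45 falls and 13 rises reached 2-fold. The smallest called change was 0.45 on the log2 scale, so smaller changes went without a call. That floor depends on the authors' adjustment as well as on the implied errors, whose median was 0.147 over the genes tested. The share called differed little with level, from 2.81% of the 3705 genes at 1 to 5 FPKM to 1.92% of the 833 genes at 100 FPKM or more. Another 30 genes reached 2-fold without a call. The 90 tested genes listed at 0 in 1 of the groups gave 0 calls, and no fold is given for them.

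**Figure D1:**
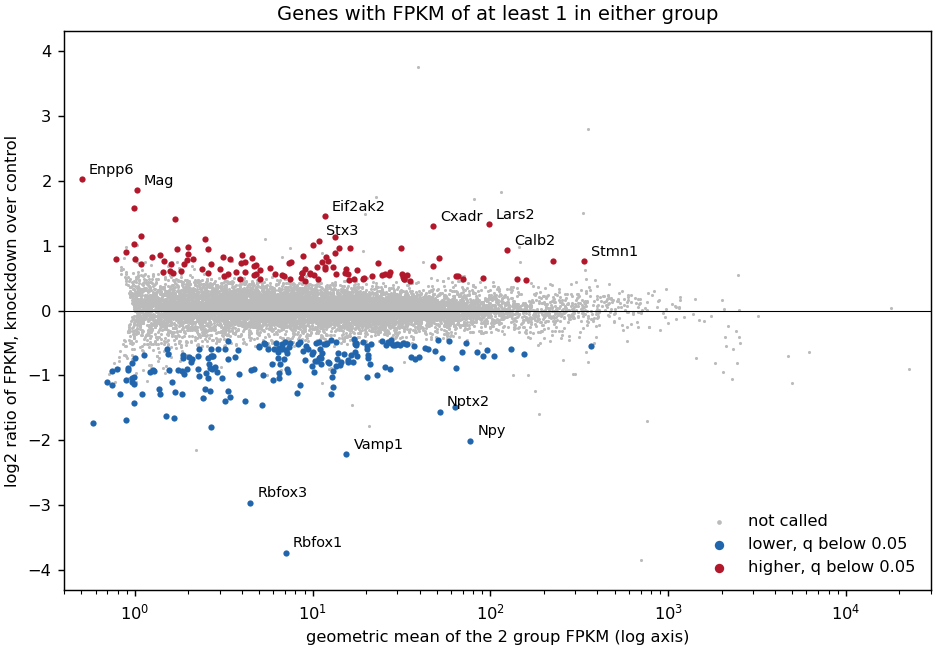
The log2 ratio of FPKM, knockdown over control, against the geometric mean FPKM of the 2 groups on a log axis, 1 point per gene. Blue and red points mark the 201 lower and 113 higher genes at q below 0.05 in the authors' deposited table, with Rbfox1 and Rbfox3 lowest among them. Genes listed at 0 in a group and 4 uncalled genes beyond 4.2 on either side are not drawn.

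Of 21 neuropeptide genes tested, 17 lay below 0 on the log2 scale, where 42.8% of all genes tested did. In all, 7 fell and 1 rose, 38.1% called beside the background of 2.49%, and the median log2 ratio of the list was -0.41. This and the other lists were made with earlier results of these data known, so the shares called per list are descriptions. In this bulk RNA, fewer cells of a type and less RNA per cell cannot be told apart. Npy (chr6:49772728-49779504), the gene of neuropeptide Y, an inhibitory peptide of hippocampal interneurons, measured 155 FPKM in control and 38.6 in knockdown neurons, 24.9% of control, with an implied error of 0.136 on its log2 ratio. Grp, which encodes gastrin-releasing peptide, measured 106 and 37.5 FPKM (-1.49, 0.129), where parentheses here and below give the log2 ratio and its implied error. The opioid precursor genes Penk and Pnoc also fell, Penk from 8.64 to 3.14 FPKM and Pnoc from 5.16 to 2.18. Vip fell from 11.7 to 6.94 FPKM and Cck from 194 to 122. Tac1, the substance P precursor gene, which was named after its values were seen, fell from 28 to 15.9 FPKM. Nmb, the neuromedin B gene, went the other way, from 8.97 to 19.7 FPKM (1.13, 0.179). Nppc, a natriuretic peptide precursor gene outside the list, also rose, from 10.1 to 19.6 FPKM. It was named after its values were seen. Scg2, the most abundant of the list, measured 455 and 343 FPKM and was not called.

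Among the markers of inhibitory neurons, 3 of 16 tested fell, namely Npy, Vip and Gad2, and none rose. Calb2, the calretinin gene, which also marks some interneurons but was placed on the calcium-binding list, rose from 90.1 to 171 FPKM. Gad2, an enzyme that makes GABA, measured 24.4 and 16.8 FPKM (-0.54, 0.133). The summed level of the list, without Calb2, was 390.1 FPKM in control and 237 in knockdown neurons, and Npy made up most of the difference. Genes of excitatory neurons gave 1 fall, Neurod2 (8.91 and 6.3 FPKM), and 1 rise, Dsp (0.647 and 1.21), among 16. Dsp was under 1 FPKM in control neurons and was tested only through its knockdown level. Slc17a7, the vesicular glutamate transporter of these cells, measured 160.4 and 140.4 FPKM and was not called.

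The SNARE list, which holds the membrane fusion proteins and their partners, gave 1 fall and 1 rise among 26 tested. Vamp1 (chr6:125165599-125172324), a synaptic vesicle protein that drives fusion, measured 33.3 FPKM in control and 7.18 in knockdown neurons (-2.22, 0.143), the largest called fall after the targeted genes. Its paralogue Vamp2, named after its values were seen, measured 25.8 and 23.9 FPKM, a log2 ratio of -0.11, without a call. Vamp1 therefore stood above Vamp2 in FPKM in control neurons and below it in knockdown neurons. Stx3 (chr19:11849608-11893893), a plasma membrane syntaxin, measured 7.49 and 15.8 FPKM (1.08, 0.151). Snap25, the most abundant member, measured 456 and 323 FPKM, and its log2 ratio of -0.50 with an implied error of 0.197 was not called. The vesicle release list gave 2 falls and 1 rise among 32. Syt12, a synaptotagmin, fell from 19 to 10.7 FPKM and Rph3a, a Rab3 effector on vesicles, from 8.69 to 5.7. Cadps2, a priming factor of dense-core vesicles, rose from 7.26 to 11.3 FPKM.

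Of 43 tested potassium channel genes 4 fell and none rose, 9.3% called beside 2.49% of all genes. Kcnip2, an auxiliary subunit of Kv4 potassium channels, did rise but was counted on the calcium-binding list. On the log2 scale 34 of the 43 lay below 0, where 42.8% of all genes tested did, and their median log2 ratio was -0.15. The called genes were Kcnq3, a subunit of the M-current channels (14.2 and 9.02 FPKM), and the inward rectifier genes Kcnj3 (35 and 24.2), Kcnj4 (68.8 and 49.7) and Kcnj9 (14.3 and 9.97). Of 10 sodium channel genes 3 fell, 30% called, but 6 of the 10 lay above 0 and the median log2 ratio was 0.07. Among the 3 falls were the pore subunit gene Scn1a, from 9.84 to 6.88 FPKM, and the auxiliary subunit gene Scn2b, from 52.5 to 35.3. The 20 genes of voltage-gated calcium channels gave 0 calls in the authors' deposited table and 3 at an unadjusted p below 0.05, with a median log2 ratio of 0.04.

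GABA genes gave 3 falls among 25, 12% called, with 19 of 25 below 0. Gabrd, the receptor subunit found mainly outside synapses, measured 12.5 and 7.87 FPKM (-0.66, 0.145), and Gad2 was also among them. Of 26 glutamate receptor genes 1 fell, Cnih3, an AMPA receptor auxiliary protein, at 18.1 and 10 FPKM. Of 19 postsynaptic scaffold genes 1 rose, Homer2, at 2.63 and 3.79 FPKM. Among 34 synaptic organisers 3 fell, the pentraxins Nptx2 (88.8 and 30.1 FPKM) and Nptx1 (87.5 and 47.4) and the adhesion protein gene Slitrk4 (20 and 14.7).

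Calcium-binding proteins changed in both directions, with 4 falls and 3 rises among 24. Necab3 measured 12.6 and 5.24 FPKM (-1.27, 0.154), Cabp7 18.2 and 9.01, Vsnl1, a neuronal calcium sensor, 34.6 and 19, and Hpcal4 86.7 and 55.8. The rise of Calb2 had a log2 ratio of 0.93 and an implied error of 0.146. Kcnip2, an auxiliary subunit of Kv4 potassium channels, rose from 21 to 30.9. Necab2, named after its values were seen, rose from 76 to 107, so members of the same Necab family moved oppositely. Of the 29 pump, exchanger and CaM kinase genes, Camkk1 fell from 25.6 to 17.9 FPKM and Atp2b4, a plasma membrane calcium pump, rose from 4.04 to 6.24.

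**Figure D2:**
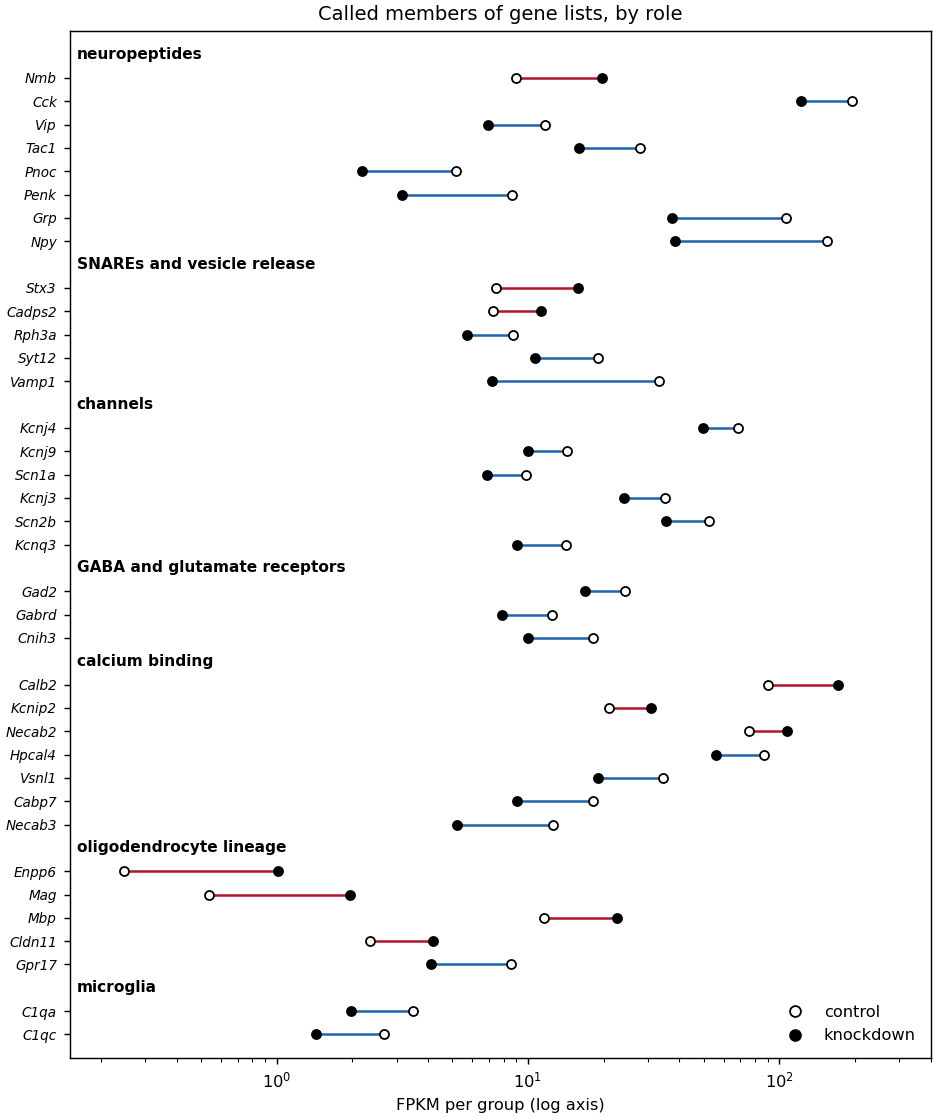
FPKM per group, on a log axis, for called members of gene lists, with control as open and knockdown as filled circles. Blue lines join genes that fell and red lines genes that rose, so that 7 of the 8 neuropeptide genes shown and all 6 channel genes shown lie lower in knockdown neurons. Kcnip2, a channel subunit gene that rose, is drawn with the calcium-binding genes.

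Activity-regulated genes were described in 2 classes, immediate early genes and the later genes that follow them. Among 23 immediate early genes 3 rose and 1 fell, 17.4% called. Of the 23, 14 lay above 0 and 9 below, with a median log2 ratio of 0.11. Their summed level was 370.1 FPKM in control and 380.4 in knockdown neurons. Npas4 rose from 8.88 to 15.8 FPKM, Egr2 from 1.48 to 2.69 and Ier2 from 8.45 to 12.3, while Ier5 fell from 20.9 to 14.8. Among 26 late activity genes and growth factors 3 fell and none rose, 11.5% called beside 2.49% of all genes. Of the 26, 23 lay below 0, where 42.8% of all genes tested did, with a median log2 ratio of -0.30. Besides Nptx2 they were Sorcs3, a sorting receptor, at 19.8 and 8.1 FPKM (-1.29, 0.128), and Ptgs2, the cyclooxygenase-2 gene, at 22.6 and 13.8.

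Receptors of neuromodulators gave 3 falls and 2 rises among 32. Rxfp1, the relaxin receptor gene, measured 2.61 and 0.847 FPKM, Crhr1 6.91 and 4.59, and Sstr2 31.1 and 21.4. Ntsr1, a neurotensin receptor gene, rose from 0.572 to 1.71 and Tacr3, a tachykinin receptor gene, from 1.84 to 3.57. Rxfp1 and Ntsr1 were each tested only through their higher group. Further peptide receptor genes lay outside the list and were named after their values were seen. Nmbr, the neuromedin B receptor gene (8.65 and 4.9 FPKM), Gipr (4.07 and 1.72), Mchr1 (2.4 and 1.45) and Prokr2 (1.74 and 0.921) fell. Trhr rose from 3.38 to 5.12, and the counts depend on which genes were listed.

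The guidance and adhesion list gave 6 rises and 2 falls among 57, with a median log2 ratio of 0.02 beside 0.03 over all genes. Cxadr, an adhesion protein that also serves as a virus receptor, measured 30.2 and 74.2 FPKM (1.30, 0.177). Efnb3, an ephrin ligand, measured 22.5 and 44, and Sema4d 1.12 and 1.89. The ephrin receptor gene Epha7 (14.9 and 8.45) and the cadherin gene Cdh13 (37.4 and 20) fell. Outside the list, the cadherin family genes Pcdh11x (32.4 and 16.3 FPKM), Cdh22 (4.04 and 2.09) and Cdh12 (7.94 and 5.32) also fell. They were named after their values were seen, and none of the called Cdh or Pcdh genes rose. The counts of this list therefore depend on which genes were listed. The cytoskeletal list gave 3 rises and 1 fall among 21. Stmn1, a tubulin-binding protein, rose from 257 to 436 FPKM, Dcx, a marker of young neurons, from 9.31 to 14.8, and Prph from 1.68 to 3.62. The neurofilament gene Nefm fell from 13.8 to 8.02.

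Several of the largest changes lay outside these groups. Lower were Arr3, an arrestin known from cone photoreceptors (4.96 and 1.43 FPKM), Cryba2 (1.06 and 0.317), Krt75 (1.59 and 0.495), Spink2 (2.95 and 0.932), Lemd1 (1.61 and 0.599) and Acan, the core protein of perineuronal nets (5.19 and 1.97). The Krt75 entry spans chr15:101346119-101524736, and its reads are uncertain because neighbouring keratin genes may lie within it. Higher were Chodl (1.03 and 2.73), Ada (0.724 and 1.6), Gm4926 (0.696 and 1.41) and Lars2, a mitochondrial tRNA synthetase gene (61.8 and 155, with an implied error of 0.325). Ada and Gm4926 were under 1 FPKM in control neurons, and Cryba2, Krt75, Spink2 and Lemd1 in knockdown neurons. Each of them was tested only through its higher group. Lars2 is uncertain, since it measured 164 FPKM in the cytoplasmic and 1347 in the nuclear rescue group. Eif2ak2 (chr17:79249845-79281912), the kinase PKR that senses double-stranded RNA, measured 7.06 and 19.3 FPKM (1.45, 0.175). It was the 1 called gene among the 25 tested on the interferon and antiviral list, whose median log2 ratio was 0.03. The list did not hold Ifi203 and Mndal, interferon-inducible genes of the p200 family named after their values were seen, which rose from 2.96 to 5.37 FPKM and from 6.6 to 11.8. The largest FPKM differences included Usmg5 (446 and 305), Crym, which binds thyroid hormone (172 and 293), and the histone gene Hist1h3c (135 and 187), which belongs to a multicopy family and is uncertain for that reason.

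Markers of glia moved with the knockdown in part, and their part in the results above was not tested. Oligodendrocyte lineage genes gave 5 rises and 1 fall among 14 tested of 22, with a median log2 ratio of 0.28. The other 8 were under 1 FPKM in both groups. Mag and Enpp6, under 1 FPKM in control neurons, were tested only through their knockdown level. The count of rises and the median therefore depend in part on that filter. Their summed level was 292 FPKM in control and 312 in knockdown neurons. The myelin genes Mbp (11.6 and 22.6 FPKM) and Mag (0.538 and 1.95) rose, as did Enpp6, a marker of newly formed oligodendrocytes (0.248 and 1.01). Cldn11, named after its values were seen, rose from 2.36 to 4.19. Pllp, the gene of the myelin protein plasmolipin, lay outside the list and fell from 8.9 to 5.3 FPKM. It was also named after its values were seen. Gpr17, a receptor of committed precursors, fell from 8.6 to 4.12, and Pdgfra, the precursor marker and most abundant member, measured 88.7 and 82.3 without a call. Microglial markers gave 2 falls, C1qa (3.5 and 1.97 FPKM) and C1qc (2.68 and 1.44), among 9 tested of 20 found, and all 9 lay below 0. Their summed level was 56.7 FPKM in control and 43.3 in knockdown neurons, and no member was at 0 in both groups. The 16 astrocyte markers and the 12 endothelial, pericyte and fibroblast markers gave 0 calls in the authors' deposited table, and 1 and 5 of them had an unadjusted p below 0.05. Astrocyte markers summed to 2615 and 2642 FPKM, with Gfap at 569 and 570.1, so RNA of this astrocyte filament protein was abundant in both groups. The endothelial, pericyte and fibroblast markers summed to 135 and 153 FPKM. These results cover the listed markers only, and genes outside the lists were not gone through in full. Lcn2 (134 and 81.9 FPKM), Chi3l1 (8.18 and 4.92) and Slc14a1 (4.7 and 3.09), which astrocytes can express, lay outside the astrocyte list and fell. They were named after their values were seen.

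**Figure D3:**
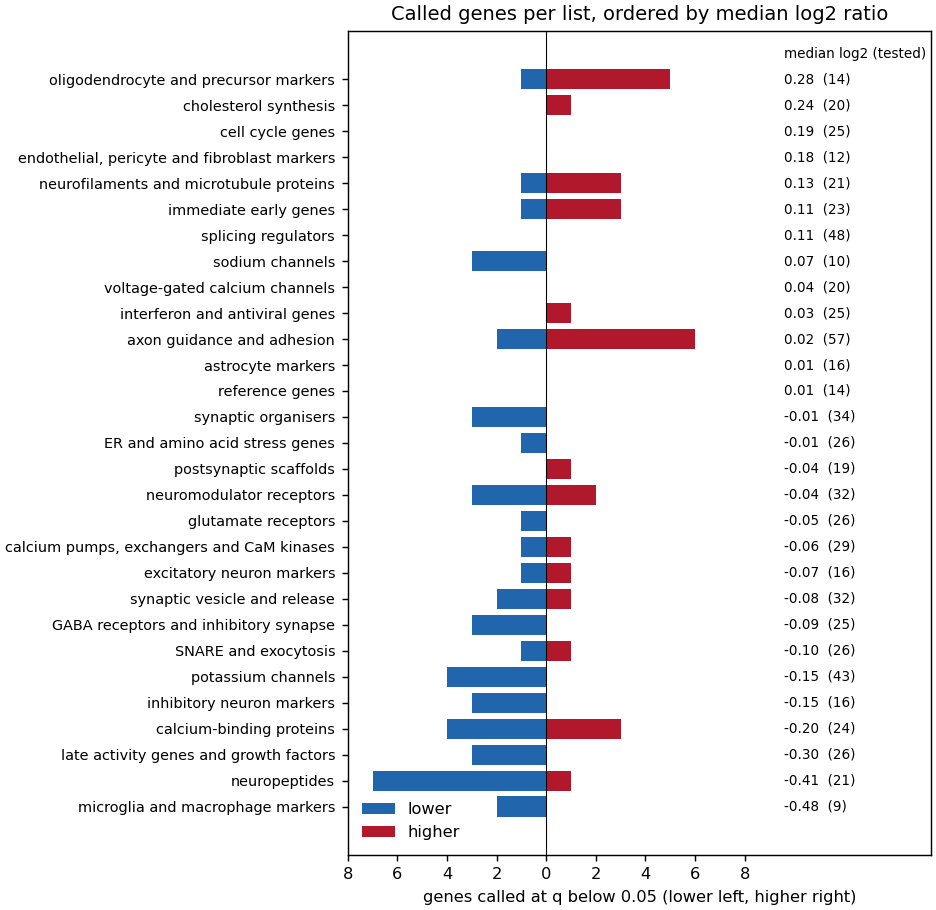
Number of genes per list called lower (blue, to the left) and higher (red, to the right) at q below 0.05 in the authors' deposited table. The lists are ordered by median log2 ratio, printed at the right with the number of genes tested, and neuropeptides show the most falls, 7 of 21.

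Lists of general cell functions gave few calls. The 14 reference genes gave 0 calls in the authors' deposited table and 0 at an unadjusted p below 0.05, with a median log2 ratio of 0.01, and Ppia, the most abundant of them, was not called. The 26 stress genes of the endoplasmic reticulum and amino acid pathways had a median of -0.01 and 1 fall, Sdf2l1, at 20.6 and 14.4 FPKM. The 25 cell cycle genes gave 0 calls in the authors' deposited table and 8 at an unadjusted p below 0.05, but 22 lay above 0 with a median log2 ratio of 0.19. Of 20 cholesterol synthesis genes 18 lay above 0, with a median of 0.24, and 1 rose, Lss, at 26.9 and 38.6 FPKM.

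Splicing was described from the authors' cassette exons, all of which differ by at least 0.100 in inclusion fraction, so the direction and size of that fraction are a description. The less included exons numbered 121 and the more included 93. The inclusion fraction is the authors' estimate of the share of transcripts that hold the exon. Junction reads, which cross from the exon or skip over it, were tested by a two-sided Fisher's exact test per exon, with Benjamini-Hochberg adjustment over the 214. That test compares the pooled libraries, not the conditions. By adjusted p below 0.05 on Fisher's exact test, 91 exons (42.5%) differed, 62 less included (29%) and 29 more included (13.6%). At an unadjusted p below 0.05 there were 122. Junction reads per exon and group ran from 31 to 13410 with a median of 178. Inclusion is reported by 2 junctions and skipping by 1, so the junction share is on another scale than the inclusion fraction. Intervals on it are 95% Wilson intervals that cover counting error only.

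The sequences of 13 of these exons are shown as examples, which do not represent the called exons by length or motif. The less included exons of Dlgap4 (80 nt), Mapt (87 nt) and Postn (81 nt), longer than those shown, are left out. All more included exons shown except that of Kcnd3 hold GCATG, against 7 of the 19 searched below. The exon is in capitals and the 15 coding bases of each neighbouring exon are in lower case, 5′ to 3′ on the transcribed strand. They come from GENCODE M21 transcripts (build GRCm38), found by chromosome, strand and the lengths of introns and exons, while positions are those of the deposited tables in mm9. Of the 214 exons, 204 were matched this way, and 144 of them were wholly coding.
Less included in knockdown neurons were the following.
Camkk2: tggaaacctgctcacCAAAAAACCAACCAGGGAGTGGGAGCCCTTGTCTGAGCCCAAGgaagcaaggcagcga
Cacna1a: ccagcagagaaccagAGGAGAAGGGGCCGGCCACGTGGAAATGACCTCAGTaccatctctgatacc
Kif21a: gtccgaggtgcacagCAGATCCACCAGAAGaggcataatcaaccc
Kif13a: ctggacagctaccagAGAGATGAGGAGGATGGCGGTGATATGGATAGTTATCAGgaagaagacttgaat
Shank1: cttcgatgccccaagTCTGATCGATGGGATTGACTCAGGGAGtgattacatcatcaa
Ndrg4: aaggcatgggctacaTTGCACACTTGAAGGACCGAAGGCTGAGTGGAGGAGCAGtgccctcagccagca
Camk2g: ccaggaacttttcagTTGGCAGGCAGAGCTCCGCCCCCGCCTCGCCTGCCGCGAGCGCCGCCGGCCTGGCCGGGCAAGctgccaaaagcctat
Ncam1: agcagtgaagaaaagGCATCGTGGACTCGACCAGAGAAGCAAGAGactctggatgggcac
More included in knockdown neurons were the following.
Kcnd3: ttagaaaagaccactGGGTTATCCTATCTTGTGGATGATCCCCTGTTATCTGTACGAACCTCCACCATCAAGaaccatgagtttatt
Stx3: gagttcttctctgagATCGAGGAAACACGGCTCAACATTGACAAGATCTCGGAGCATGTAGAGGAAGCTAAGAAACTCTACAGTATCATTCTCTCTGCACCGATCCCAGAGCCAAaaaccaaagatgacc
Anks1: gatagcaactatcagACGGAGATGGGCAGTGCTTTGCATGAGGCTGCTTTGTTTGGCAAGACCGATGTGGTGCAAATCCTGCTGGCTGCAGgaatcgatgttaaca
Tnk2: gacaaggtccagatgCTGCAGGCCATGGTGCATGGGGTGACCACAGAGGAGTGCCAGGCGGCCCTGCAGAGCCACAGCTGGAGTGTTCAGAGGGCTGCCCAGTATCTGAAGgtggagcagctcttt
Cttn: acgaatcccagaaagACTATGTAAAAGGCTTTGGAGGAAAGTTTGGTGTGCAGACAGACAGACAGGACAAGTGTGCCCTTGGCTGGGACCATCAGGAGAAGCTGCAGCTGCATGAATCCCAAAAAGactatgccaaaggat

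Exons of channel and kinase genes were among those with the largest falls. The 36 nt exon of Cacna1a (chr8:87159448-87159483, plus strand), the pore subunit of P/Q-type calcium channels, had an inclusion fraction of 0.808 in control and 0.483 in knockdown neurons. Its junction share was 88.3% (81.6 to 92.8) in control and 58.5% (49 to 67.4) in knockdown neurons, with an adjusted p of 2.04e-06 on Fisher's exact test. Kcnip2 included a 54 nt exon less often, at 0.927 and 0.772, while its FPKM rose. The 43 nt exon of the CaM kinase kinase gene Camkk2 (chr5:123186997-123187039, minus strand) measured 0.686 and 0.326, with junction shares of 77.1% and 44.2%. Among the CaM kinase II genes, a 63 nt exon of Camk2g measured 0.352 and 0.137, and a 42 nt exon of Camk2d 0.508 and 0.35. Camk2d's reads were uneven between the 2 inclusion junctions, 12 and 96 in control.

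Motor, scaffold and adhesion genes also had short exons that were less included. The kinesin genes Kif21a (15 nt) and Kif13a (39 nt) measured 0.817 and 0.543, and 0.457 and 0.206. Kif21a's reads were uneven between junctions, 212 and 11 in control and 139 and 6 in knockdown neurons. A 27 nt exon of Shank1, a postsynaptic scaffold, measured 0.403 and 0.169 on few reads, with junction shares of 52.2% (40.5 to 63.7) and 23% (14.2 to 34.9). A 39 nt exon of Ndrg4 had the deepest coverage, 13410 and 12097 junction reads, and measured 0.848 and 0.63. The 30 nt exon of the adhesion gene Ncam1 measured 0.503 and 0.348, with 1476 and 766 reads in control and 1216 and 1212 in knockdown neurons.

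Fewer exons were more included. The 57 nt exon of Kcnd3 (chr3:105469880-105469936, plus strand), a Kv4 potassium channel, measured 0.466 and 0.743, with 262 and 105 reads for inclusion and skipping in control and 397 and 43 in knockdown neurons. Its junction shares were 71.4% (66.6 to 75.8) and 90.2% (87.1 to 92.7). The 111 nt exon of Cttn, the actin-binding protein cortactin, measured 0.476 and 0.71, with junction shares of 71.2% and 86.1%. The 96 nt exon of the kinase gene Tnk2 measured 0.472 and 0.683. A 54 nt exon of the splicing regulator Mbnl1 measured 0.349 and 0.467, while the Mbnl1 level was 19.8 FPKM in both groups. Other increases were in Jag2 (114 nt), Ppfia4 (111 nt), Anks1 (76 nt), Golgb1 (178 nt), Trmt9b (88 nt), Sorcs1 (161 nt) and Fkbp14 (90 nt). Those of Golgb1, Trmt9b and Sorcs1 lost their call when inclusion reads were halved to stand for 1 junction.

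Stx3 held the largest fall, and its 2 listed exons moved in opposite directions. The 46 nt exon (chr19:11864538-11864583, minus strand) measured 0.563 and 0.102. Its reads were 120 for inclusion and 56 for skipping in control, and 70 and 333 in knockdown neurons, a junction share of 68.2% (61 to 74.6) and 17.4% (14 to 21.4). The adjusted p was 1.60e-30 on Fisher's exact test. The 100 nt exon (chr19:11866236-11866335, minus strand) measured 0.809 and 0.942. Its inclusion reads rose from 199 to 831, and the skipping reads were 28 and 31. The gene's FPKM rose 2.11-fold at the same time. Neither length is a multiple of 3.

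**Figure D4:**
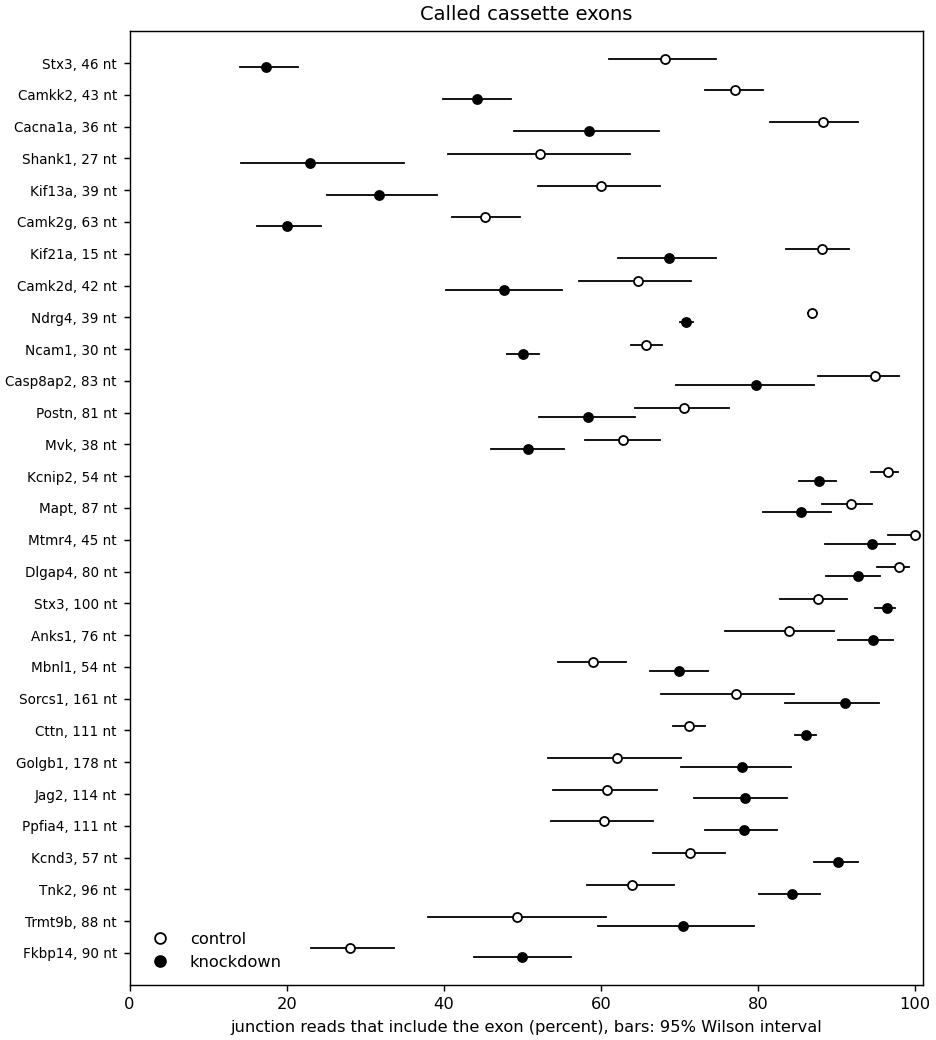
Share of junction reads that include the exon, in percent, for 29 of the 91 called exons, with control as open and knockdown as filled circles. Bars are 95% Wilson intervals and cover counting error only, and among those drawn the intervals of Stx3 (46 nt) and Camkk2 lie furthest apart.

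Shorter exons lay on the side of less inclusion. The called less included exons had a median length of 49.5 nt, the called more included ones 90 nt and all 214 listed exons 83 nt. Of the 24 exons of 30 nt or less, 13 were called less included and 2 more included. The 52 exons of 31 to 60 nt gave 23 and 5, the 89 exons of 61 to 120 nt gave 16 and 15, and the 49 longer ones gave 10 and 7. Length was a multiple of 3 in 60 of the 91 called exons, 65.9%, and in 123 of the 214 listed, 57.5%. The 214 hold the 91. Untranslated and noncoding exons, which have no reading frame, were counted too, 6 and 3 of the 91 and 23 and 14 of the 214. No test was made of these shares.

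**Figure D5:**
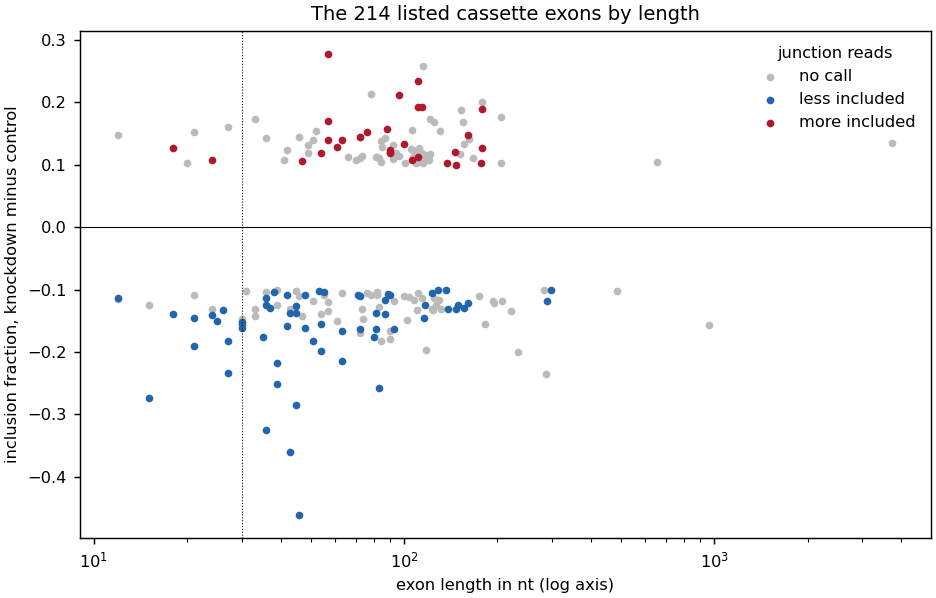
Difference in inclusion fraction, knockdown minus control, against exon length in nt on a log axis for the 214 listed exons. Blue and red points are the 62 less and 29 more included exons called on junction reads, grey points were not called, and the dotted line is at 30 nt, left of which 13 blue and 2 red points lie.

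The motifs GCATG and TGCATG, which overlap since the longer holds the shorter, were searched in the wholly coding exons, on the transcribed strand only because the proteins bind RNA. GCATG was found in 7 of 19 called more included exons, 36.8%, against 8.15% of all GENCODE coding exons of the same lengths. They were those of Madd, Clock, Abca7, Stx3 (100 nt), Anks1, Tnk2 and Cttn. In the called less included exons it was found in 3 of 44, 6.82%, against 5.04%. TGCATG was found in 3 more included exons, those of Anks1, Tnk2 and Cttn, 15.8% against 2.1%. It was found in 1 less included exon, that of Magi1, 2.27% against 1.51%. Over all 144 wholly coding listed exons, called or not, GCATG was found in 20, 13.9% against 8.41%. TGCATG was found in 7 of the 144, 4.86% against 2.28%. These matches are descriptions of letters and not binding sites, and the introns were not analysed here.

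Exon changes and level changes met in few genes. Of 195 host genes of listed exons that were tested, 6 were called for level, 3.08% beside 2.49% of all genes, and their median log2 ratio was 0.03. Among them were Stx3, Kcnip2, Scn1a, Phip and Fkbp14. The exons of Scn1a and Phip, however, were not called on junction reads by Fisher's exact test, with shares of 94% and 91.6% for Scn1a and 94.4% and 97.9% for Phip. Other listed exons, named after their values were seen, likewise differed in fraction with little difference in junctions. That of Gria2 measured 99.2% and 98.2% of junction reads and that of Acsl6 98.6% and 99.2%, and 8 uncalled exons had opposite directions in fraction and junction share.

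Levels in the rescue groups are given without a test, because the genes were chosen on the knockdown values. Among the 199 falls other than the targeted genes, the median level was 60.1% of control in knockdown neurons, 64.7% in the cytoplasmic rescue and 61% in the nuclear rescue. Among the 113 rises it was 157%, 134% and 149%. Vamp1, at 7.18 FPKM in knockdown neurons, measured 17.6 in the cytoplasmic and 26.5 in the nuclear rescue, and Eif2ak2, at 19.3, measured 6.74 and 6.63. Npy, at 38.6, measured 57 and 41.9, and Nptx2, at 30.1, measured 48.2 and 29.1. Rbfox1 itself measured 16.1 and 38.2 FPKM, so the isoforms were not at equal levels.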

How the data were processed

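RNA-seq of cultured mouse neurons was analysed from tables made by the authors with CASAVA and Cufflinks on mm9, per the submitters' processing notes (version numbers not given in the sources used here), and with SpliceTrap, per the labels. The deposited FPKM is 1 value per group. The deposited test statistic is a score that is positive for genes lower in knockdown neurons, and the authors' p-value and q-value stand beside it. The deposited exon tables give an inclusion fraction, counts of junction reads and a coverage signal. Another 74 value columns were not used. The planned limma test needs values per library, which were not used here, so calls are the authors' q below 0.05, adjusted by them.

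Log2 ratios were computed from FPKM with no pseudocount. The authors' p-value matched a two-sided normal tail probability, computed from their statistic, within 2.8e-06. Junction counts were tested by Fisher's exact test with Benjamini-Hochberg adjustment (Python 3.11.15, scipy 1.17.1, pandas 2.3.3), checked on simulated data. PCR duplicates were not marked by molecular identifiers, so intervals cover counting error only. Of 821 entries in 30 gene lists, 792 were found. Genes, lists and exons were chosen with earlier results of these data known. Named genes are Rbfox1 to Rbfox3, the 12 largest called falls and rises, the 5 largest FPKM falls and rises, and up to 5 called members per list, with the most abundant member where uncalled. Named exons are the 10 called with the largest change each way, those in list genes and those in called genes. Some genes and exons that these rules select are not reported here.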

Additional observations from a re-analysis of the deposited data

How the results depend on the processing

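No paired analysis was possible because the tables hold 1 value per group, and for the same reason no sample could be left out in turn. At q below 0.01 the 314 called genes became 204, and the 113 rises 65. Requiring 0.5 or more on log2(FPKM + 1) gave 70 rises, and with at least 5 FPKM the 201 falls became 133. Recomputing the Benjamini-Hochberg adjustment within this comparison gave 421 calls, and using no FPKM minimum 367. The naming rule chose 80 genes besides Rbfox1 and Rbfox3, all of them called except Rbfox2. Of the 80, 19 lost the call at q below 0.01, among them Kcnj4, Kcnj9, C1qa and C1qc. None of the settings could reverse the direction of these genes, so their direction was not tested by them. For exons, an adjusted p below 0.01 left 54 of 91, 38 less and 16 more included, and a difference of at least 10 percentage points left 19 of 29 more included. Halving the inclusion reads left 68, all among the 91. The exons of Mtmr4, Dlgap4, Mapt, Postn, Golgb1, Trmt9b and Sorcs1 then lost their call.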

Other observations

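Histone genes were looked at after their values were seen. Of 65 tested genes whose symbols start with Hist1 to Hist4, 63 lay above 0, with a median log2 ratio of 0.31 and a range of -0.19 to 0.54, against 0.03 over all genes. Of these, 6 were called in the authors' deposited table, all higher. Hist1h1b, a linker histone gene, measured 53.3 FPKM in control and 77.3 in knockdown neurons, and Hist1h3b measured 119 and 166. The replication-independent genes H3f3a (365 and 387), H3f3b (166 and 173) and H1f0 (40.3 and 41.4) had log2 ratios of 0.08, 0.06 and 0.04. Many histone genes are near-identical copies, so reads may be split among them and the members are not independent.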
